A study of Bos taurus with 16 samples.

Results

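The receptor and ligand genes described here belong to the TGFβ and BMP family and were followed across knockdown of Creb5 and treatment with TGFβ2 in bovine articular chondrocytes. They were the type I receptor TGFBR1 (ENSBTAG00000018035) and the ligands TGFB1 (ENSBTAG00000020457), GDF5 (ENSBTAG00000004429) and GDF10 (ENSBTAG00000001019). They were chosen by gene identifier, 4 of the 19454 genes in the count table. Chondrocytes from the superficial zone of knee cartilage of calves in their first weeks of life, at 1 library per calf and group from 4 calves, were infected with lentivirus carrying a control hairpin (shScramble) or a hairpin against Creb5 (shCreb5) and selected in 0.8 µg/ml puromycin for 5 days. They were then kept for 48 hours on low attachment plates in serum-containing medium. Condition A held TGFα at 100 ng/ml, condition AB held the same TGFα plus TGFβ2 at 20 ng/ml, so that every group carried a lentivirus, went through puromycin selection and received TGFα. The groups were therefore shScramble in A, shCreb5 in A, shScramble in AB and shCreb5 in AB, with 4 libraries each. As a model they were pools of selected, cultured cells, only 1 hairpin against Creb5 was used, and the A and AB cells of a calf with the same hairpin came from the same infection.

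TGFβ ligands bind a type II receptor that recruits and phosphorylates the type I receptor TGFBR1, which then activates receptor-regulated SMAD proteins. TGFB1 is secreted in a latent complex and signals through TGFBR1, while GDF5 is a BMP-type ligand known for its expression in the interzone where synovial joints form. GDF10, also called BMP3b, is a divergent member related to BMP3.

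Total counts ranged from 14710867 to 21853634 per library, with a median of 19721435. Values below are counts scaled with edgeR's TMM factors to a common library size (CPM), which serve to compare a gene between libraries and not genes with each other, since transcript lengths were not used. Log2 fold changes come from edgeR's quasi-likelihood test, in which calf was a blocking factor, and p-values were adjusted by Benjamini-Hochberg over all genes tested. The standard errors (SE) beside them are those of the mean log2 ratio of the 4 calves. They describe the spread between calves, and the p-values do not rest on them. In bulk RNA, fewer cells of a type and less RNA per cell cannot be told apart.

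CREB5, the target of the hairpin, was measured first as a check of the labels. It had 124, 71.4, 77.8 and 105 CPM in calves 1 to 4 with shScramble and 86.1, 44.7, 57.7 and 72.6 CPM with shCreb5 in condition A. In condition AB it had 83.0, 59.0, 62.7 and 78.7 CPM with shScramble and 43.0, 36.2, 31.1 and 34.9 CPM with shCreb5. In 4 of 4 calves, and in both conditions, CREB5 was below its shScramble level, as the labels state, and a large part of the transcript remained. Its log2 fold change was -0.54 in A (SE 0.05, adjusted p = 0.337 by edgeR) and -0.96 in AB (SE 0.10, adjusted p = 0.124 by edgeR), so that it did not pass the threshold of 0.05.

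TGFBR1, the type I receptor, had 132, 98.2, 230.1 and 209 CPM in calves 1 to 4 with shScramble and 96.5, 74.6, 121 and 108 CPM with shCreb5 in condition A. In condition AB it had 254, 109, 244 and 267 CPM with shScramble and 137, 77.2, 171 and 151 CPM with shCreb5. Calf 2 had the lowest value of every group, and each calf had less TGFBR1 with shCreb5 than with shScramble in either condition, although the ranges of the groups overlapped. The group means were 219 ± 73.6 CPM (SD, n = 4) for shScramble in AB, 167 ± 62.4 for shScramble in A, 134 ± 40.4 for shCreb5 in AB and 100.1 ± 19.7 for shCreb5 in A. Each of these groups overlapped its neighbour in this order.

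The log2 fold change of TGFBR1 with shCreb5 was -0.68 in condition A (SE 0.15, adjusted p = 0.444 by edgeR's quasi-likelihood test) and -0.68 in condition AB (SE 0.10, adjusted p = 0.245 by the same edgeR test). TGFBR1 was lower in 4 of 4 calves in both, and the difference did not pass in either. DESeq2 gave it an adjusted p of 0.00206 in A and 0.000275 in AB, so that the call depended on the test. With TGFβ2, TGFBR1 had a log2 fold change of 0.38 in shScramble cells (SE 0.19, adjusted p = 0.108 by edgeR) and rose by 0.38 in shCreb5 cells (SE 0.11, adjusted p = 0.0263 by edgeR), with 4 of 4 calves higher in each. The value in shScramble cells was 0.20 without calf 1 and 0.21 with library totals in place of TMM factors. The rise in shCreb5 cells no longer passed without calf 1, 3 or 4, where edgeR's adjusted p lay at 0.0964, 0.114 and 0.104. Nor did it pass with library totals (0.22, adjusted p = 0.100 by edgeR) or in a single fit of all 16 libraries (0.38, adjusted p = 0.0584 by edgeR). The difference of the knockdown effect between conditions was -0.01 on the log2 scale (SE 0.18, adjusted p = 0.998 by edgeR). TGFBR1 overlaps 1 other gene in the RefSeq annotation of a later assembly, and reads of both could be divided between them.

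**Figure D1:**
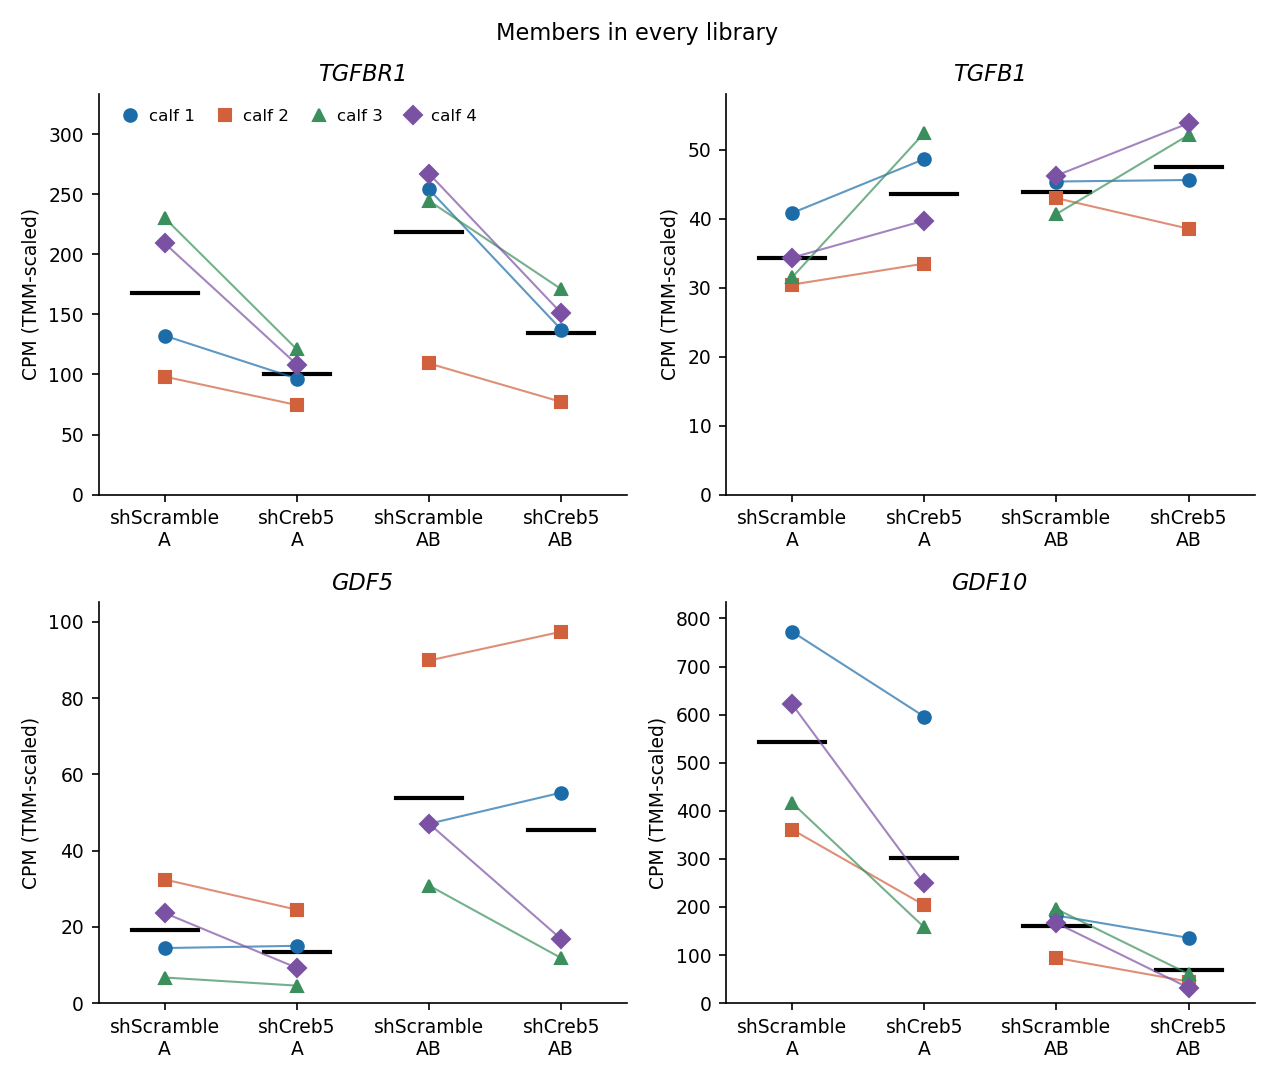
Level of each member in every library, in CPM on a linear axis, by hairpin and condition. Symbols are calves, lines join the libraries of a calf within a condition, and black bars are group means; GDF10 lies between 361 and 772 CPM in shScramble cells in A and between 94.1 and 196 CPM in AB.

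TGFB1, a latent ligand of TGFBR1, had 40.8, 30.5, 31.5 and 34.4 CPM in calves 1 to 4 with shScramble and 48.7, 33.5, 52.5 and 39.7 CPM with shCreb5 in condition A. In condition AB it had 45.4, 43.0, 40.7 and 46.3 CPM with shScramble and 45.6, 38.6, 52.1 and 53.9 CPM with shCreb5. Calf 2 was lowest in 3 of the 4 groups, and the ranges of all neighbouring groups overlapped. In order of their means, the groups were shCreb5 in AB (47.5 ± 6.96 CPM, SD, n = 4), shScramble in AB (43.8 ± 2.51), shCreb5 in A (43.6 ± 8.58) and shScramble in A (34.3 ± 4.67).

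TGFB1 was higher with shCreb5 in 4 of 4 calves in condition A, with a log2 fold change of 0.33 (SE 0.14, adjusted p = 0.539 by edgeR). Its log2 fold change in AB was 0.11 (SE 0.11, adjusted p = 0.738 by edgeR), with 3 of 4 calves higher. Neither knockdown difference passed, and leaving out 1 calf gave 0.20 to 0.39 in A and 0.03 to 0.21 in AB. With TGFβ2, TGFB1 rose by 0.36 in shScramble cells (SE 0.07, adjusted p = 0.034 by edgeR), higher in 4 of 4 calves, and had a log2 fold change of 0.13 in shCreb5 cells (SE 0.12, adjusted p = 0.385 by edgeR), higher in 2 of 4. The difference between these responses, -0.23 on the log2 scale (SE 0.08), did not pass (adjusted p = 0.961 by edgeR). For such differences the SE pairs the effects by calf, while edgeR's fit of all 16 libraries held only the calf's level as a block. The rise in shScramble cells no longer passed without calf 2, 3 or 4, where edgeR's adjusted p lay at 0.139, 0.107 and 0.0836, nor with library totals in place of TMM factors, where it was 0.298. TGFB1 overlaps 2 other genes, HNRNPUL1 and CCDC97, in the same annotation, and the use of strand in the counting is not given in the sources used here.

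GDF5, the BMP-type ligand of joint interzones, had 14.5, 32.4, 6.73 and 23.6 CPM in calves 1 to 4 with shScramble and 15.04, 24.5, 4.60 and 9.26 CPM with shCreb5 in condition A. In condition AB it had 47.1, 89.9, 30.8 and 47.1 CPM with shScramble and 55.2, 97.4, 11.8 and 16.8 CPM with shCreb5. Calf 2 was highest and calf 3 lowest in every group, and each calf had more GDF5 in AB than in A with either hairpin. In order of their means, the groups were shScramble in AB (53.7 ± 25.3 CPM, SD, n = 4), shCreb5 in AB (45.3 ± 39.8), shScramble in A (19.3 ± 11.1) and shCreb5 in A (13.4 ± 8.58), and every neighbouring pair overlapped.

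With TGFβ2, GDF5 rose by 1.57 on the log2 scale in shScramble cells (SE 0.25, adjusted p = 0.00104 by edgeR) and by 1.55 in shCreb5 cells (SE 0.26, adjusted p = 0.00146 by edgeR), higher in 4 of 4 calves in each. Both rises passed without any 1 of the calves. The log2 fold change of GDF5 with shCreb5 was -0.56 in condition A (SE 0.29, adjusted p = 0.545 by edgeR), with 3 of 4 calves lower, and -0.59 in condition AB (SE 0.46, adjusted p = 0.612 by edgeR), with 2 of 4 lower. Leaving out 1 calf gave -0.77 to -0.28 in A and -0.88 to -0.29 in AB, nearest to 0 without calf 4 in each. Without the calf as a block the value in AB was -0.24. In AB the calves were split, with log2 ratios of 0.23 and 0.12 in calves 1 and 2 and of -1.38 and -1.48 in calves 3 and 4. The difference of the knockdown effect between conditions was 0.07 (SE 0.29, adjusted p = 0.997 by edgeR), with 2 of 4 calves above 0.

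GDF10, the BMP3-related ligand, had 772, 361, 416 and 621 CPM in calves 1 to 4 with shScramble and 596, 204, 158 and 249.6 CPM with shCreb5 in condition A. In condition AB it had 182, 94.1, 196 and 167 CPM with shScramble and 136, 44.9, 60.6 and 31.9 CPM with shCreb5. Every calf had less GDF10 in AB than in A and less with shCreb5 than with shScramble, and with the same hairpin the ranges of A and AB did not overlap. In order of their means, the groups were shScramble in A (543 ± 189.7 CPM, SD, n = 4), shCreb5 in A (302 ± 199.7), shScramble in AB (159.6 ± 45.3) and shCreb5 in AB (68.3 ± 46.5), and every neighbouring pair in this order overlapped.

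With TGFβ2, GDF10 fell, with a log2 fold change of -1.76 in shScramble cells (SE 0.22, adjusted p = 0.000654 by edgeR) and of -2.17 in shCreb5 cells (SE 0.32, adjusted p = 0.000884 by edgeR), lower in 4 of 4 calves in each. Both passed without any 1 of the calves. The log2 fold change of GDF10 with shCreb5 was -0.98 in condition A (SE 0.24, adjusted p = 0.444 by edgeR) and -1.38 in condition AB (SE 0.42, adjusted p = 0.555 by edgeR), lower in 4 of 4 calves in each, and did not pass in either. DESeq2 gave adjusted p-values of 0.00023 in A and 0.000157 in AB. In AB the calves ranged from -0.43 in calf 1 to -2.38 in calf 4. The difference of the knockdown effect between conditions was -0.42 (SE 0.22, adjusted p = 0.962 by edgeR), with the same sign in 4 of 4 calves.

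**Figure D2:**
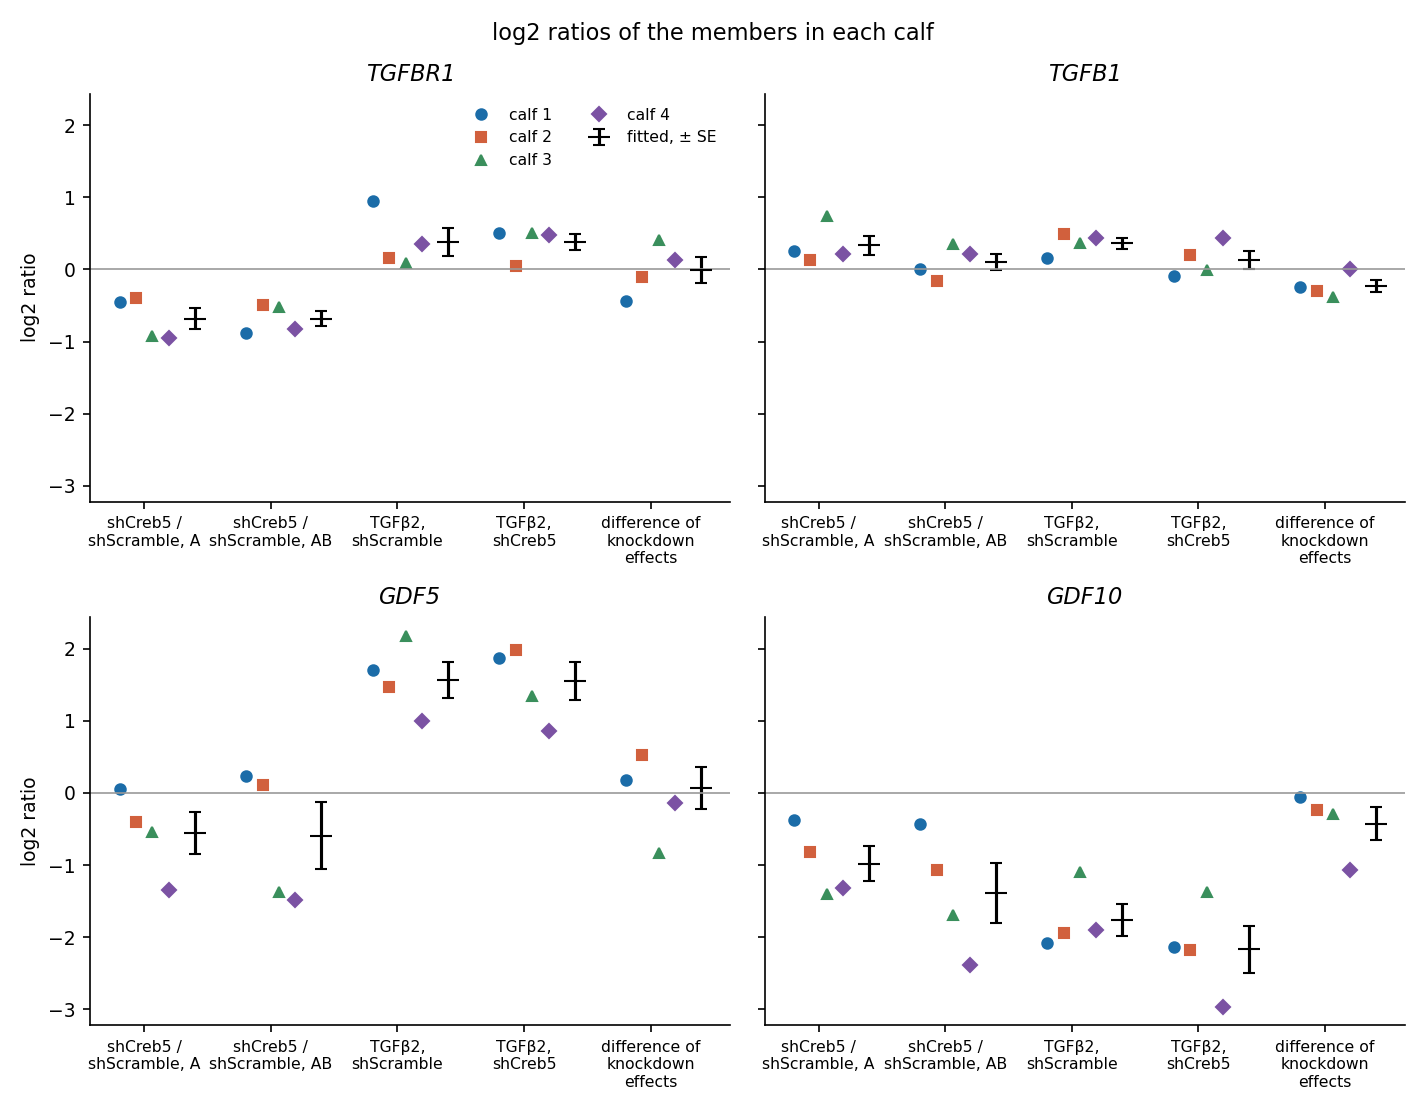
Log2 ratio of each member in every calf for the 5 comparisons, with the fitted log2 fold change and the SE of the 4 ratios in black. GDF5 lies above 0 and GDF10 below 0 in each of the 4 calves for both TGFβ2 comparisons, while the knockdown ratios of GDF5 in condition AB fall on both sides of 0.

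Of the 4 members, 0 passed an adjusted p of 0.05 in either knockdown comparison by edgeR's quasi-likelihood test, and neither did any other gene, 0% of the 12922 genes tested in condition A and 0% of the 12664 tested in AB. At an unadjusted p under 0.05, edgeR's test gave 1144 genes in A and 1078 in AB, and DESeq2 called 79 and 55 genes at an adjusted p under 0.05, among them 2 of the 4 members, TGFBR1 and GDF10, in each condition. All 4 members in A and 2 in AB had an unadjusted p under 0.05 by edgeR. TGFBR1, GDF5 and GDF10 were lower at an unadjusted p under 0.05 in A, 3 of 4 members against 4.41% of genes, and TGFBR1 and GDF10 in AB, 2 of 4 against 4.47%. TGFBR1 and GDF10 were lower in 4 of 4 calves in both conditions, beside 8.5% of genes in A and 9.17% in AB, and TGFB1 was higher in 4 of 4 calves in A, beside 9.75%. TGFBR1 and GDF10 had already been named from these libraries for lower expression after the knockdown, so that these shares are no independent evidence.

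With TGFβ2, 3 of 4 members were called in shScramble cells (TGFB1, GDF5 and GDF10) beside 19.8% of 12879 genes, and 3 of 4 in shCreb5 cells (TGFBR1, GDF5 and GDF10) beside 30.4% of 12769 genes. Called and higher were 10.7% of genes in shScramble cells and 15.9% in shCreb5 cells, and called and lower were 9.15% and 14.5%. These comparisons shared no library with each other, but each shared its libraries with the knockdown comparisons. With library totals in place of TMM factors the median log2 fold change of all genes moved to -0.18 in shScramble cells and -0.17 in shCreb5 cells, and the calls split into 841 higher and 2341 lower in shScramble cells, against 1378 and 1178 with TMM, and into 1243 higher and 3407 lower in shCreb5 cells, against 2027 and 1857. GDF5 and GDF10 kept their direction and their call under that scaling. TGFB1 in shScramble cells (0.18, adjusted p = 0.298 by edgeR) and TGFBR1 in shCreb5 cells (0.22, adjusted p = 0.100 by edgeR) no longer passed. For the difference of the knockdown effect between conditions, edgeR's test called 0 of 13372 genes (0%), with 571 at an unadjusted p under 0.05 and 10 called by DESeq2.

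**Figure D3:**
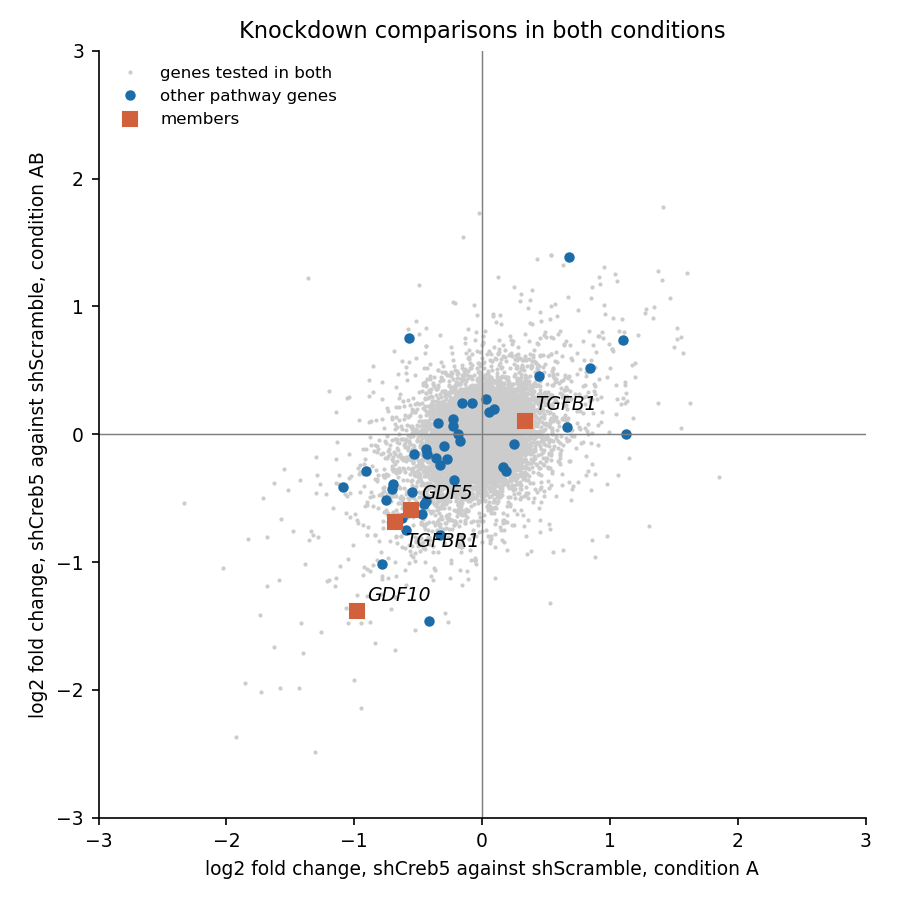
Log2 fold change with shCreb5 in condition A against that in condition AB for 12499 genes tested in both (grey; 1 gene lies beyond the axes), with other pathway genes in blue and the members as squares. GDF10, at -0.98 and -1.38, lies farthest from 0 of the members, and TGFB1 lies on the other side of 0.

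The members differed in what their variation followed. Of the sum of squares of log2 CPM over the 16 libraries, the calf took 49.3% for TGFBR1, the hairpin 33.1% and the condition 10.5%. For GDF10 the condition took 56.7%, the hairpin 20.8% and the calf 13.9%. GDF5 followed the calf (45.2%) and the condition (39.4%), with 5.78% for the hairpin. TGFB1 was spread over calf (23.9%), condition (24.2%) and hairpin (19.0%), with 27.9% left as residual. The median over 13372 genes was 46.3% for the calf, 2.38% for the hairpin and 11.7% for the condition. Since TGFBR1 and GDF10 had been named from these libraries for lower expression after the knockdown, their hairpin shares are no independent evidence.

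**Figure D4:**
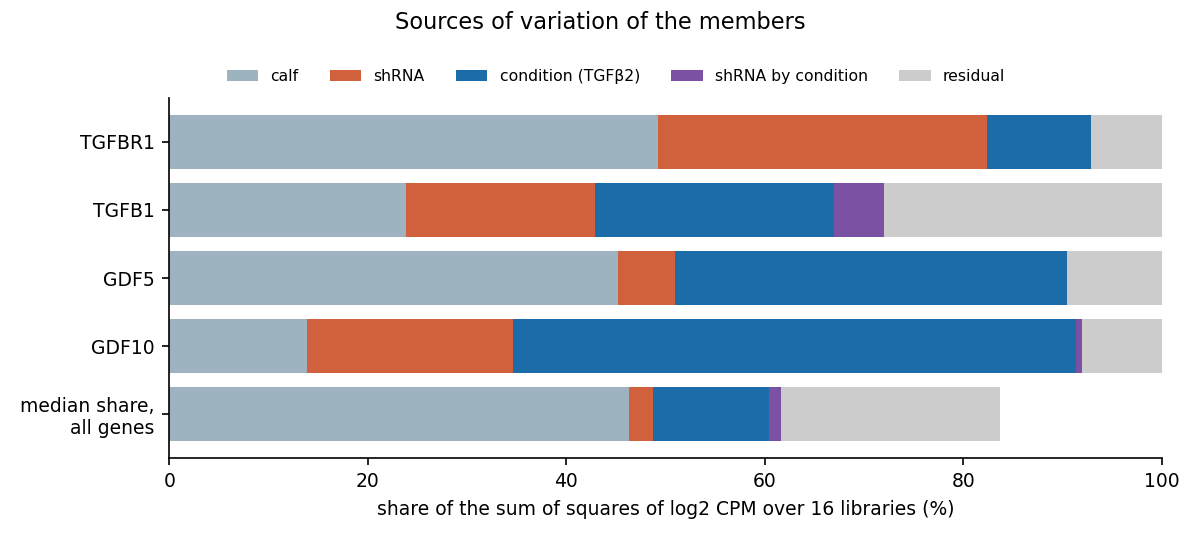
Share of the sum of squares of log2 CPM that calf, hairpin, condition and their interaction took for each member over 16 libraries, in percent, with the medians over all genes, which need not sum to 100. The condition took 56.7% for GDF10 and 10.5% for TGFBR1.

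The genes whose pattern was most like that of each member were named by the Pearson correlation of log2 CPM, centred on the mean of each calf, over the 16 libraries among 2654 genes with a symbol. These libraries share calves, hairpins and conditions, and the correlations are descriptions. Genes with a symbol came from the head of lists ordered by significance of the knockdown, and genes without a symbol were not compared. For TGFBR1 they were ANOS1 (r = 0.965), HBEGF (0.933) and BMI1 (0.902). For TGFB1 they were FAM102B (r = 0.914), TOX4 (0.898) and XPO6 (0.887). For GDF5 they were KCNQ3 (r = 0.968), ARHGEF40 (0.961) and IL16 (0.959), and for GDF10 PLEKHO2 (r = 0.990), DAB2IP (0.975) and STIM1 (0.970). Among the members themselves the correlation was 0.67 between TGFBR1 and GDF5 and -0.77 between TGFB1 and GDF10. For the remaining pairs it was -0.43 (GDF5 and GDF10), -0.26 (TGFBR1 and TGFB1), 0.19 (TGFB1 and GDF5) and 0.03 (TGFBR1 and GDF10).

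Other genes of the pathway were taken from lists of ligands, receptors, extracellular modulators, SMADs, intracellular regulators and target genes. Only 43 of the 133 listed genes other than the members could be matched to an identifier, and the matched genes lay near the head of lists ordered by significance of the knockdown, so that their shares describe those 43 genes. With TGFβ2, 14 rose and 10 fell in shScramble cells by edgeR's test, 55.8% of 43, and 15 rose and 8 fell in shCreb5 cells, 53.5%. Among all genes with a symbol, 28.9% were called in shScramble cells and 45.6% in shCreb5 cells. The median log2 fold change of the 43 was -0.02 in shScramble cells and 0.10 in shCreb5 cells, beside -0.01 for all genes in each. Without the genes listed only as target genes, 9 of 32 rose and 8 fell in shScramble cells, and 10 rose and 7 fell in shCreb5 cells. The 32 still held SKIL, TGIF1 and LTBP2, which were also listed as target genes and rose with either hairpin. With library totals in place of TMM factors, 12 of the 43 rose and 12 fell in shScramble cells, and 13 rose and 10 fell in shCreb5 cells. That recount was chosen after seeing the data.

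Among the ligands, BMP6 rose, with log2 fold changes of 2.08 in shScramble cells and 2.32 in shCreb5 cells, and TGFB3 fell (-0.97 and -0.68, in the same order here and below). TGFB2, the gene of the added ligand, had a log2 fold change of -0.80 in shScramble cells (adjusted p = 0.101 by edgeR) and fell in shCreb5 cells (-0.80). Of the receptors, BMPR1A, a type I receptor for BMPs, rose by 0.32 in shCreb5 cells, and the co-receptor TGFBR3 fell with either hairpin (-0.46 and -0.89). NEO1, a co-receptor, fell in shScramble cells (-0.33).

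Of the genes that hold or release latent TGFβ, LTBP2 rose (1.51 and 1.17) and LTBP1 fell (-0.50 and -0.41). THBS1 rose by 1.96 in shScramble cells and had a log2 fold change of 0.83 in shCreb5 cells that did not pass (adjusted p = 0.145 by edgeR). The extracellular BMP modulators moved both ways, with 2 of 7 higher and 4 lower in shScramble cells and 3 higher and 3 lower in shCreb5 cells. This was 85.7% called with either hairpin, beside 28.9% of genes with a symbol in shScramble cells and 45.6% in shCreb5 cells. CHRD, which encodes the BMP antagonist chordin, rose (1.96 and 1.88), and TLL1, a protease that cleaves chordin, rose (1.77 and 1.496). BMPER (-1.78 and -2.39), CHRDL1 (-1.83 and -1.31) and CHRDL2 (-1.11 and -2.23) fell, while FSTL1 rose by 0.65 in shCreb5 cells.

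Of 7 intracellular regulators, 4 rose and 0 fell by edgeR's test with either hairpin, among them SKIL (0.97 and 1.17), TGIF1 (0.65 and 0.76) and SKI (0.40 and 0.25), which encode repressors of SMAD signaling. This was 57.1% called, beside 28.9% of genes with a symbol in shScramble cells and 45.6% in shCreb5 cells. SMAD3 and SMAD4 did not pass. Of 10 target genes of TGFβ, 8 rose and 0 fell with either hairpin, among them TGFBI (3.93 and 3.77), POSTN (2.71 and 4.07) and PRG4, the gene of lubricin (1.94 and 1.91). Called and higher were 10.7% of all genes in shScramble cells and 15.9% in shCreb5 cells. SKIL, TGIF1 and LTBP2 are counted here as well as in the lists above, so that these counts are not separate. Of 4 target genes of BMP, ATOH8 fell (-1.44 and -1.73), and DLX5 fell in shScramble cells (-0.60). The others did not pass, 2 of 4 in shScramble cells and 3 of 4 in shCreb5 cells. Called were thus 50% and 25%, beside 28.9% and 45.6% of genes with a symbol.

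**Figure D5:**
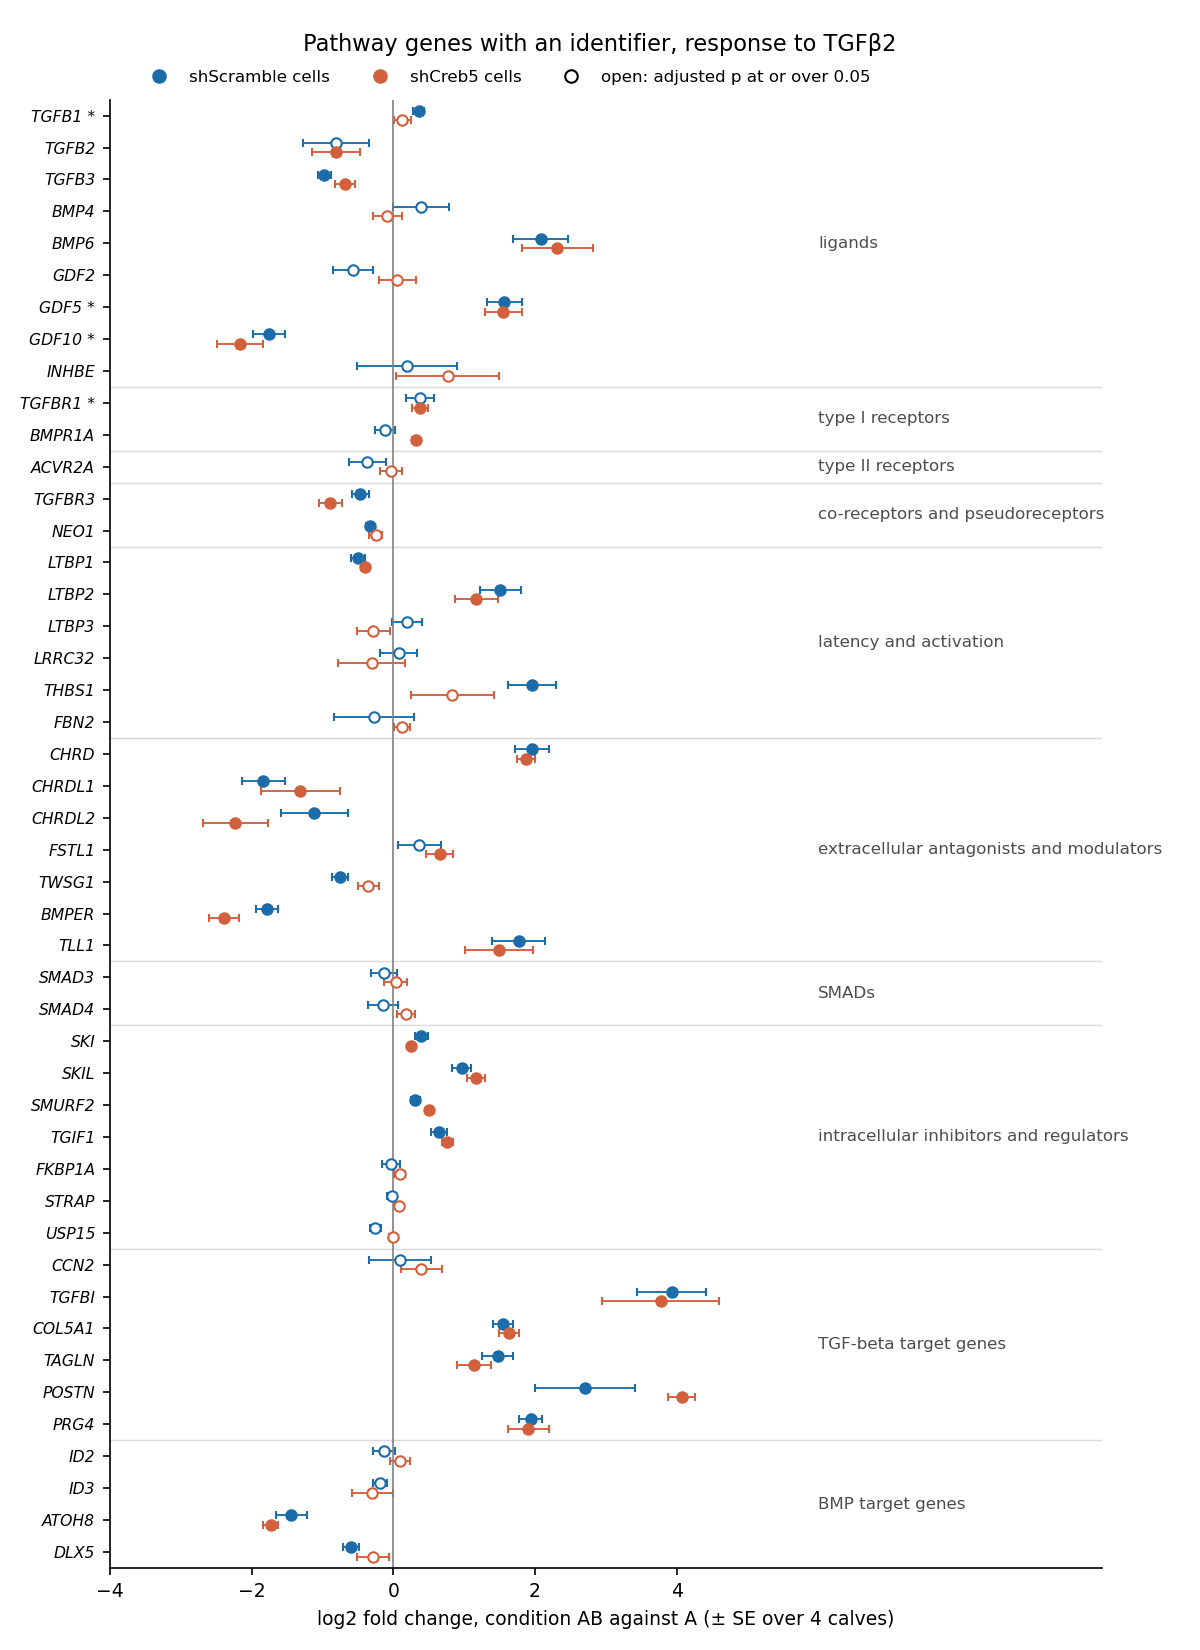
Log2 fold change with TGFβ2 (condition AB against A) of pathway genes with an identifier, by role, each gene shown once, in shScramble cells (blue) and shCreb5 cells (orange), with SE over 4 calves. Filled points passed an adjusted p of 0.05 by edgeR, and asterisks mark members. TGFBI, at 3.93 and 3.77, and POSTN, at 2.71 and 4.07, lie farthest above 0.

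In the knockdown comparisons, 0 of the 43 passed in either condition by edgeR's quasi-likelihood test, while 16 in A and 14 in AB had an unadjusted p under 0.05. Over all genes, 1144 of 12922 in A and 1078 of 12664 in AB did. Since the 43 lay near the head of lists ordered by the significance of the knockdown, an excess among them has no meaning of its own. DESeq2 called 4 of the 43 in A, among them PRG4, BMPER and CCN2, the last of which was named after its value was seen, and 0 in AB. By unadjusted p, those named in A were PRG4 (log2 fold change -0.63) and BMPER (0.66), with adjusted p-values by edgeR of 0.502 and 0.509. In AB they were TLL1 (-1.02), BMP4 (-0.78) and POSTN (0.75), with adjusted p-values by edgeR from 0.555 to 0.584.

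Markers of cell types were examined beside these results, as far as identifiers allowed. Of 18 markers of articular chondrocytes 4 had an identifier (PRG4, COL11A1, HAPLN1 and CREB5), and their summed level ranged from 9358 to 23387 CPM in condition A and from 28733 to 65278 CPM in AB, with PRG4 the most abundant on average. With TGFβ2, PRG4, also a listed target gene of TGFβ, rose (log2 fold changes of 1.94 and 1.91, shScramble cells first here and below). CREB5 fell (-0.40 and -0.82). COL11A1 rose in shCreb5 cells (1.11) but did not pass in shScramble cells (0.47), and HAPLN1 passed in neither (-0.09 and 0.45). Of 8 fibroblast or synovium markers 3 had an identifier, with COL3A1 the most abundant, and their summed level was 2716 to 5449 CPM in A and 5088 to 10929 CPM in AB. With TGFβ2, 3 of these 3 were called higher with either hairpin, COL3A1 by 1.18 and 1.17. Among genes with a symbol, 28.9% and 45.6% were called. Of 6 osteoblast markers 2 had an identifier, with SPP1 the most abundant, at 657 to 2882 CPM summed in A and 107 to 494 CPM in AB. SPP1 fell with TGFβ2 (-3.13 and -2.43), while DMP1, the other marker, did not pass (-0.13 and -0.12). In the knockdown comparisons no marker passed by edgeR. SPP1 was higher with shCreb5 in 4 of 4 calves in A (0.63) and in AB (1.32), and so was LAPTM5, a leukocyte marker (0.56 and 0.75). COL3A1 (-0.27 and -0.28) and DMP1 (-0.25 and -0.24) had negative log2 fold changes. The part of such shifts in the TGFβ2 and knockdown differences of the members was not tested. The 2 endothelial markers at hand summed to at most 23.6 CPM, the 3 leukocyte markers to at most 122 CPM, the 2 adipocyte markers to at most 60.5 CPM and the 1 smooth muscle marker to at most 29.7 CPM in any library. None of the markers with an identifier was at 0 in any library, and those of hypertrophic chondrocytes and skeletal muscle were not analysed here.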

How the data were processed

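RNA-Seq libraries of 4 calves, 1 for each hairpin and condition, 16 in all, were analysed. The authors quantified reads with Salmon on UMD3.1, summed them to Ensembl genes and deposited estimated counts rounded to whole numbers, without scaling for library size. Groups and calf numbers came from the labels. Which libraries were sequenced with which kit is not given in the sources used here, so batches were not examined. The authors report lower RNA integrity numbers for 2 of the 16 samples. Which libraries these were is not given either, so RNA quality was not examined. The numbers pair libraries: after subtracting group means, log2 CPM of libraries of the same calf correlated at 0.132 to 0.837 over 13372 genes (24 pairs), against at most 0.204 between calves, and the calf was a block in every fit. No 2 libraries within a group were copies (chi-square per degree of freedom 78.7 to 383 over 24 pairs).

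Genes passing filterByExpr were tested with edgeR 4.0.16 (TMM factors, quasi-likelihood test) in R 4.3.3, in the 8 libraries of each comparison and in all 16 for the difference of knockdown effects, with Benjamini-Hochberg adjustment and a threshold of 0.05. Log2 CPM used a prior count of 2. Alternatives used DESeq2 1.42.0 and limma 3.58.1, other scalings and filters, no block, a single fit and each calf left out. The methods were tested on simulated data, and the outcome of that test is not given here.

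The members and lists were chosen with earlier results of these data known. Genes named were the members, CREB5 and PRG4 as checks, for each pathway list up to 3 higher and 3 lower genes called with TGFβ2, the 3 pathway genes with the smallest unadjusted p in each knockdown comparison, the 3 genes most alike to each member with a mean of at least 5 CPM, and the most abundant marker of each list. Further markers of cell types were named after their values were seen. Symbols were taken for 3123 genes from the 1998 lines at hand of each of 2 supplementary tables sorted by knockdown significance, and their fold changes and p-values were not used. A pathway gene that the rule names is counted in the lists but not reported here by name or in the plots of pathway genes. A planned search of promoters for motifs and a comparison of ligand domains were not run, since no sequences were used here.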

Additional observations from a re-analysis of the deposited data

Results flagged for a closer look

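Of 58 sets of 4 values looked at (the members, CREB5, PRG4 and the library totals), 2 held a value far from the other 3, where chance gives about 2.9. TGFBR1 in shScramble cells in condition AB had 109 CPM in calf 2 and 244 to 267 CPM in the other calves, and on the log2 scale the gap of calf 2 to its nearest neighbour was 0.901 of the whole range. The log2 ratio of TGFBR1 with TGFβ2 in shCreb5 cells was 0.049 in calf 2 and 0.48 to 0.51 in the other calves, a gap of 0.940 of the range.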

How the results depend on the processing

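Each result was recomputed under up to 12 alternatives, 1 of which, library totals in place of TMM factors, was chosen after seeing the data. Of 236 log2 fold changes of members, 207 kept their direction and their side of the threshold, 14 no longer passed, 4 newly passed and 11 changed sign. DESeq2 called 79 genes in the knockdown in A, with TGFBR1 at -0.69 and GDF10 at -0.98 now passing, 55 in AB, with TGFBR1 at -0.67 and GDF10 at -1.38 now passing, and 10 for the difference between conditions, against 0 by edgeR in each. In AB, limma-voom called 1 gene (ENSBTAG00000038155), no filter on low counts 17 and a single fit of all 16 libraries 6. Without the replicate block, calls with TGFβ2 went from 2556 to 202 in shScramble cells and from 3884 to 194 in shCreb5 cells, where TGFB1 (0.35) and GDF5 (1.47) in shScramble cells and TGFBR1 (0.42), GDF5 (1.76) and GDF10 (-2.15) in shCreb5 cells no longer passed, and calls among the other pathway genes, a recount also chosen after seeing the data, went from 24 to 6 and from 23 to 5; it changed no other call of a member. In shCreb5 cells TGFBR1 also failed in the single fit (0.38) and with library totals (0.22), where TGFB1 was -0.035, and in shScramble cells TGFB1 failed with library totals (0.18). The difference between conditions, near 0 for TGFBR1, changed sign with limma-voom (0.0022), RLE (4.08e-05), no filter (0.0089) and no replicate block (0.038), and that of GDF5 with limma-voom (-0.017). Leaving out 1 calf gave 0 to 1 calls in the knockdown in A (SCG2, without calf 2), 0 to 2 in AB (CPXM2 and MMP3, without calf 1), all named after their values were seen, 1366 (without calf 3) to 1926 with TGFβ2 in shScramble cells and 1962 (without calf 4) to 3829 in shCreb5 cells, where it was 2408 without calf 3, with fewer samples in each fit. It gave TGFB1 0.33 to 0.43 in shScramble cells, TGFBR1 0.34 to 0.49 in shCreb5 cells, and a difference between conditions of -0.15 to 0.12 for TGFBR1 and -0.12 to 0.36 for GDF5. With TGFβ2 it also gave TGFBR1 0.20 to 0.48 in shScramble cells, and in shCreb5 cells TGFB1 0.02 to 0.20 and GDF10 -2.43 to -1.91. For the knockdown the widest range was that of GDF10 in AB (-1.71 to -1.06), with -1.18 to -0.84 in A. The ranges of GDF5 were -0.77 to -0.28 in A and -0.88 to -0.29 in AB. Those of TGFB1 were 0.20 to 0.39 in A and 0.03 to 0.21 in AB. Apart from fewer samples, the cause of these shifts was not tested.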
